A study of Mus musculus with 96 samples.

Results

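Microglial genes were examined across 3 brain regions, 2 mouse strains and 2 treatments. The genes were Fcrls, Tmem119, P2ry12, Cx3cr1, Csf1r, Aif1, Trem2, Irf8, Gpr84 and Itgam. The genes were chosen by name as microglial genes, with earlier results of these data known. Fcrls was selected on its measured strain difference in these samples. The tests of region and clozapine below are therefore not tests of genes fixed beforehand. Each gene had a single transcript cluster, the set of probes that measures one locus, and these were 10 of the 28310 transcript clusters on the arrays. The levels and strain differences are therefore given as a description, without a test.

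The study asked how region, genetic background and a single dose of an antipsychotic drug shape expression in mouse brain. The 16 male mice were 14 weeks old and were 8 C57BL/6J and 8 NOD/ShiLtJ, both inbred strains without a transgene. NOD/ShiLtJ is known for autoimmune diabetes that arises on its own. Per strain, 4 mice were given clozapine at 4 mg/kg by intraperitoneal injection and 4 were given vehicle, 0.9% saline, and all were killed 3 hours later. From each mouse, forebrain and hindbrain came from one hemisphere and whole brain from the other, with the cerebellum removed. Each of the 48 RNA samples was hybridized to 2 Affymetrix formats of the same probe design, 1.1ST and 1.0ST, giving 96 arrays. Values are log2 intensities, and unless a format is named they are from the 1.1ST arrays. Levels of different genes come from different probes and are not compared with each other, and the number of arrays sets the precision. The 3 samples of a mouse are not independent, so results are given per mouse beside the model over all arrays.

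Microglia are the resident macrophages of the brain. They survive only while their receptor Csf1r is engaged by Csf1 or Il34, and they sample their surroundings through receptors such as the purine receptor P2ry12 and the fractalkine receptor Cx3cr1. The transcription factors Spi1 (PU.1) and Irf8 hold their identity, Trem2 signals through Tyrobp in lipid sensing and phagocytosis, and Gpr84 is a receptor for medium-chain fatty acids that rises with inflammatory stimuli. Aif1 encodes the cytoplasmic protein Iba1, Itgam the integrin chain CD11b, Tmem119 a membrane protein used to mark microglia, and Fcrls a scavenger-type member of the Fc receptor-like family.

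Promoter sequence was available in RefSeq (GRCm38.p6) for 8 of the 10 genes, as 250 bases before and 50 bases after each annotated start, and 3 are shown. They belong to the gene with the strain difference, to a lipid sensor that fell in hindbrain, and to the gene with the lowest clozapine p. The core PU.1 motif GAGGAA and its reverse complement are in capitals. Fcrls lies on the minus strand at chr3:87263475-87263774, Trem2 on the plus strand at chr17:48346151-48346450, and Gpr84 on the minus strand at chr15:103310389-103310688.
Fcrls: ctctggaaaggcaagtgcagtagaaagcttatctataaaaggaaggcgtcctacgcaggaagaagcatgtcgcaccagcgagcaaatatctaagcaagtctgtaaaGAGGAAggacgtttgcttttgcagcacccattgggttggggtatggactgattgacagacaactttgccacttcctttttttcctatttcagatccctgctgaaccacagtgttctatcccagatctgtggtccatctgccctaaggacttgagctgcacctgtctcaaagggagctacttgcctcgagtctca
Trem2: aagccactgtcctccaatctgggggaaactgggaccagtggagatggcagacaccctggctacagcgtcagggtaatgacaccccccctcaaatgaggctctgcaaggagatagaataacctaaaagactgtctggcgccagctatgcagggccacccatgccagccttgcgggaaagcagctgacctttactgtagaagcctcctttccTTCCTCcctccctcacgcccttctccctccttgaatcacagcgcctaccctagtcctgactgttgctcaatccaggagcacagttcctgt
Gpr84: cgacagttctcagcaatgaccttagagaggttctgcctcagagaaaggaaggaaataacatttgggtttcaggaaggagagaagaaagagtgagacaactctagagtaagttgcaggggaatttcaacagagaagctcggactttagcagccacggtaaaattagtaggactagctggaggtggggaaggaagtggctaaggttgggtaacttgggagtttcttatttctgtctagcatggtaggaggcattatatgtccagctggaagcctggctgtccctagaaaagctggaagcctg

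The Fcrls window held the motif once on the strand of the gene, with an offset of -144 bases from the start. The Trem2 window held it once on the opposite strand, with an offset of -40 bases from the start. The Gpr84 window held no match, which says only that these letters are not in this window. On both strands, GAGGAA was present in the windows of 4 of the 8 genes (Fcrls, Itgam, Aif1 and Trem2) and in 28.3% of 32851 promoters of all genes. The longer form GAGGAAGT, which overlaps it, was in 3.2% of all promoters and in none of the 8 genes. The composite element of PU.1 and IRF factors (EICE) was in 2.72% of all promoters and in none of the 8, and the interferon-stimulated response element (ISRE) was in 3.44% and in Aif1. A match is a description of letters and not of binding.

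A few arrays stood apart from their groups. The 1.1ST forebrain array of NOD/ShiLtJ clozapine mouse DD676 had the lowest mean correlation with the other arrays of its group (r = 0.99235) and the lowest median intensity of any 1.1ST array (6.28, in a range up to 6.61), and it was the lowest of its group of 8 for 5 of the 10 genes. The 1.1ST hindbrain array of NOD/ShiLtJ clozapine mouse DD678 had the next lowest correlation (r = 0.99358) and was the lowest of its group for 8 of the 10 genes. The whole brain array of NOD/ShiLtJ vehicle mouse DD656 correlated better with hindbrain than with forebrain arrays on both formats, although counts of called genes were the same without it, and that of C57BL/6J vehicle mouse BB707 did so on the 1.1ST format. For the calls between regions and for clozapine, fits without the first pair of arrays are also given. The exact tests, mouse means and correlations below include both of these arrays.

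Fcrls was lower in NOD/ShiLtJ than in C57BL/6J in all 3 regions, and no NOD/ShiLtJ sample reached the lowest C57BL/6J sample of its region. In forebrain, the 8 C57BL/6J mice had a lowest value of 7.58, a median of 7.77 and a highest of 8.19, and the 8 NOD/ShiLtJ mice had 6.17, 6.57 and 6.82. In hindbrain the values were 7.17, 7.39 and 7.60 in C57BL/6J and 5.33, 5.65 and 5.78 in NOD/ShiLtJ. In whole brain they were 7.51, 7.78 and 8.02 in C57BL/6J and 5.97, 6.38 and 6.88 in NOD/ShiLtJ. The strains did not overlap in any region on either format. Over all transcript clusters, 3.49% in forebrain, 3.88% in hindbrain and 3.29% in whole brain had strains that did not overlap, in either direction, and on the 1.0ST arrays the shares were 3.29%, 3.22% and 2.62%. Because the gene was chosen for this pattern, nothing is read from the comparison with that share.

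The gap between strain means was 2.43-fold in forebrain, 3.45-fold in hindbrain and 2.55-fold in whole brain. The same gaps were 2.26-fold, 2.79-fold and 2.30-fold on the 1.0ST arrays. With the surrogate variables described below in the model, the log2 difference (NOD/ShiLtJ minus C57BL/6J) was -1.27 (SE 0.091) in forebrain, -1.73 (SE 0.097) in hindbrain and -1.35 (SE 0.089) in whole brain. The order of the group means was C57BL/6J forebrain 7.83 ± 0.20, C57BL/6J whole brain 7.74 ± 0.16, C57BL/6J hindbrain 7.39 ± 0.15, NOD/ShiLtJ forebrain 6.55 ± 0.22, NOD/ShiLtJ whole brain 6.40 ± 0.32 and NOD/ShiLtJ hindbrain 5.60 ± 0.13 (SD, n = 8 each). Within each strain, forebrain and whole brain were closer to each other than 1 SD, and hindbrain lay below both. Less Fcrls transcript in NOD/ShiLtJ and weaker binding of the NOD/ShiLtJ sequence to probes designed on a reference genome cannot be told apart, since every NOD/ShiLtJ sample carries the same alleles.

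**Figure D1:**
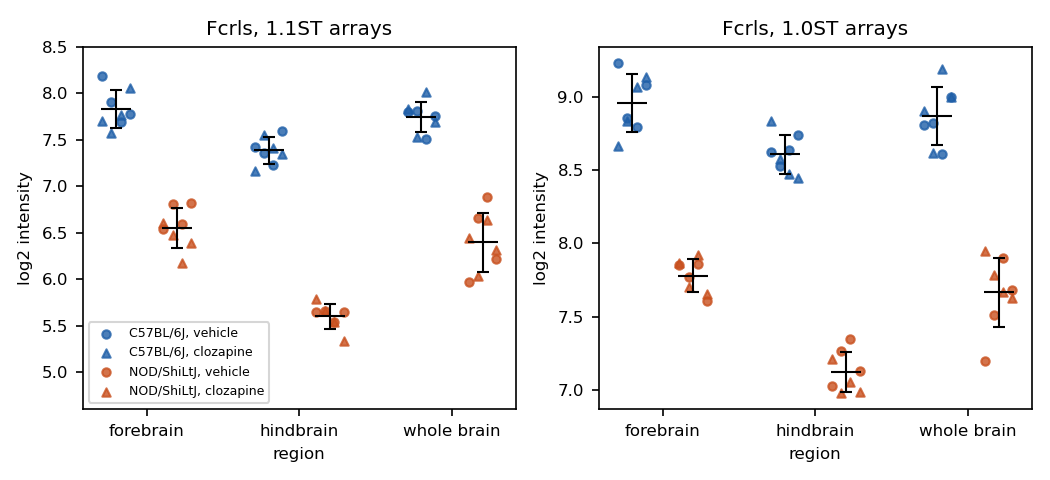
Fcrls log2 intensity (vertical axis) by region and strain, with 1 point per mouse, filled by treatment, and mean ± SD, for both array formats in separate panels. In every region and on both formats all 8 NOD/ShiLtJ mice lie below all 8 C57BL/6J mice, and hindbrain is lowest in each strain.

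The neighbors of Fcrls on the chromosome had smaller strain differences. Fcrls sits among immune receptor genes, and the 5 measured genes on each side were read from the order of starts in RefSeq. The sizes of their fitted NOD/ShiLtJ minus C57BL/6J differences reached at most 0.57 in any region. The next gene, Cd5l, a secreted scavenger protein of macrophages, had -0.0021 in forebrain, 0.052 in hindbrain and -0.00050 in whole brain. The B cell receptor-like gene Fcrl1 had -0.19, -0.022 and -0.050, and on the other side the cell adhesion gene Kirrel had 0.17, 0.089 and 0.13. The largest size, 0.57, belonged to Mab21l2, with 0.24 (SE 0.19), 0.31 (SE 0.21) and 0.57 (SE 0.19). Mean levels were low for Cd5l (4.02), Fcrl1 (4.15), Fcrl5 (3.91), Cd1d1 (4.49) and Cd1d2 (4.72), where array medians ran from 6.28 to 6.61. At such levels a strain difference can hardly be seen. Fcrls itself had a mean of 5.60 in NOD/ShiLtJ hindbrain, which also lay below these medians. The remaining neighbors had mean levels from 6.04 (Pear1) to 9.1 (Dclk2).

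The genes most like Fcrls were found from the levels across all 48 arrays. The highest Pearson correlations were with Ddx4 (r = 0.93), Irak1bp1 (r = 0.93), Arntl2 (r = 0.93), Ulk4 (r = 0.92) and H4c4 (r = 0.92). These points share strain and mouse, and the values are a description without a test.

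The other 9 genes had overlapping strains in every region on both formats. All their fitted strain differences on the 1.1ST arrays were above 0, toward NOD/ShiLtJ, which is the direction opposite to Fcrls. In plain group means without the surrogate variables, Irf8 and Gpr84 in forebrain and in hindbrain and Trem2 in hindbrain were lower in NOD/ShiLtJ, with differences from -0.083 (Gpr84 in hindbrain) to -0.0049. On the 1.0ST arrays the fitted difference in whole brain was -0.0013 for Gpr84 and -0.0073 for Itgam. Tmem119 had 0.21, 0.25 and 0.21 in forebrain, hindbrain and whole brain, and Cx3cr1 had 0.22, 0.24 and 0.22. P2ry12 had 0.11, 0.19 and 0.14. Csf1r had 0.052, 0.14 and 0.060, and Itgam had 0.11, 0.093 and 0.033. For Tmem119 in forebrain, C57BL/6J mice had a lowest value of 7.75, a median of 7.95 and a highest of 8.09, against 7.86, 8.17 and 8.30 in NOD/ShiLtJ. For Cx3cr1 in forebrain the values were 7.98, 8.15 and 8.36 against 8.02, 8.41 and 8.53. In both genes the ranges overlapped while the NOD/ShiLtJ median was higher. Over the 10 genes the median strain difference was 0.11 in forebrain, 0.14 in hindbrain and 0.13 in whole brain, beside 0.0061, 0.015 and 0.0091 over all clusters. Strain differences took part in the choice of the genes and are not tested.

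**Figure D2:**
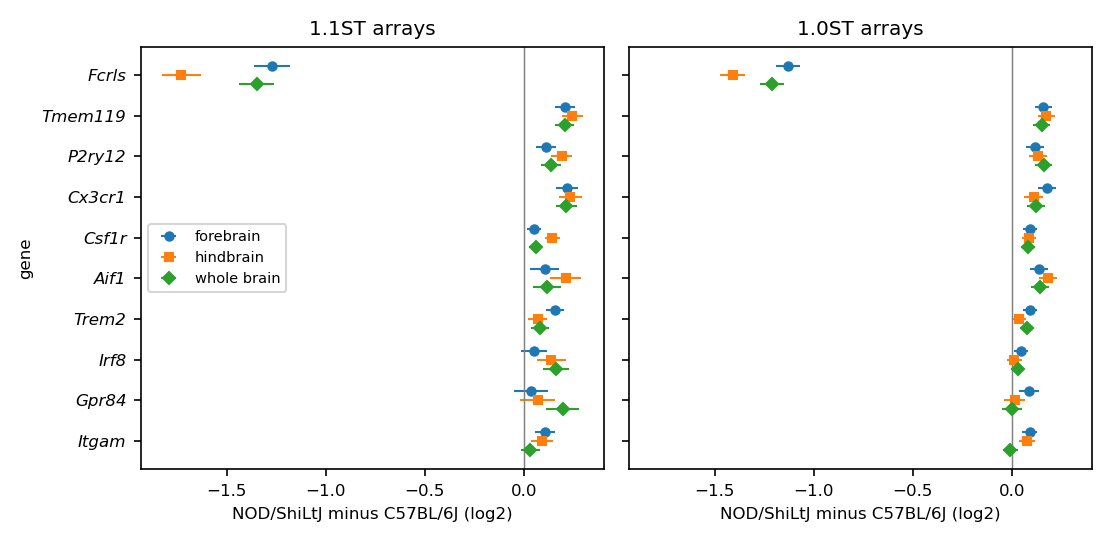
Fitted NOD/ShiLtJ minus C57BL/6J difference in log2 intensity (horizontal axis) for each of the 10 genes, with bars of 1 SE, by region and in a panel per format. Fcrls lies between -1.73 and -1.27 on the 1.1ST arrays, and the other 9 genes lie between 0 and 0.25.

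Between regions, most of the genes were lower in hindbrain than in forebrain. The model compared regions within strains, with treatment and 5 surrogate variables as covariates and the mouse as a random block. It was fitted in limma over all 28310 clusters, and a gene was called at an FDR below 0.05. Each surrogate variable was the first principal component of transcripts picked for their correlation with a component of the residuals. Whether these variables took up part of the region difference was not tested. In all, 9 of the 10 genes were called, 8 lower and 1 higher in hindbrain. Over all clusters 47.2% were called, 19.7% lower and 27.5% higher. On the 1.0ST arrays 19.3% of all clusters were called with the surrogate variables and 77.1% without them. On the 1.1ST arrays 65.7% were called without them. The median difference (hindbrain minus forebrain) was -0.16 over the 10 genes and 0.023 over all clusters. In these bulk samples, fewer microglia and less RNA per microglial cell cannot be told apart.

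The receptors that engage the surroundings, P2ry12 and Cx3cr1, both fell. P2ry12 had a lowest value of 7.50, a median of 7.56 and a highest of 7.68 in C57BL/6J forebrain, and 7.17, 7.39 and 7.51 in hindbrain. In NOD/ShiLtJ it had 7.55, 7.76 and 7.83 in forebrain and 7.27, 7.56 and 7.80 in hindbrain. P2ry12 was lower in hindbrain in 14 of 16 mice, as were 15.5% of all clusters, with overlapping ranges in both strains. The mean difference per mouse was -0.195, and -0.106 on the 1.0ST arrays. With the surrogate variables in the model, the fitted difference of P2ry12 was larger, at -0.30 (SE 0.050, limma FDR = 1.62e-06). Cx3cr1 had 7.98, 8.15 and 8.36 in C57BL/6J forebrain and 7.76, 7.88 and 8.10 in hindbrain, and 8.02, 8.41 and 8.53 against 7.66, 8.17 and 8.38 in NOD/ShiLtJ. It was lower in hindbrain in 15 of 16 mice, and it fell by 0.26 (SE 0.055, limma FDR = 7.67e-05). Over all clusters 11.7% were lower in hindbrain in at least 15 of 16 mice.

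Csf1r, the receptor that keeps microglia alive, was lower in hindbrain in all 16 mice, as were 7.97% of all clusters. Its C57BL/6J values were 8.94, 9.01 and 9.15 in forebrain and 8.77, 8.82 and 8.97 in hindbrain, and its NOD/ShiLtJ values were 8.86, 9.07 and 9.14 against 8.72, 8.90 and 9.04. The per-mouse differences ran from -0.39 to -0.017, and the fitted difference was -0.17 (SE 0.036, limma FDR = 5.3e-05). Trem2 fell by 0.14 (SE 0.045, limma FDR = 0.00346) and was lower in 13 of 16 mice. Tmem119, lower in 13 of 16 mice, fell by 0.14 (SE 0.050, limma FDR = 0.00831). Over all clusters 20.3% were lower in at least 13 mice. Without mouse DD676, Trem2 and Tmem119 were no longer called.

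Irf8, the transcription factor of the list, was lower in hindbrain in 13 of 16 mice. Its C57BL/6J values were 6.49, 6.67 and 6.97 in forebrain and 6.13, 6.53 and 6.61 in hindbrain, and its NOD/ShiLtJ values were 6.21, 6.75 and 6.98 against 6.00, 6.47 and 6.82. The ranges overlapped in both strains and the fitted difference was -0.23 (SE 0.068, limma FDR = 0.00248). Itgam fell by 0.13 (SE 0.051, limma FDR = 0.0146), with 11 of 16 mice lower. Aif1 had a difference of -0.14 (SE 0.073, limma FDR = 0.0544) and was not called, with 12 of 16 mice lower. Without mouse DD676, Irf8 and Itgam were no longer called, and Aif1 was called when any of 8 other mice was left out (differences between -0.18 and -0.10 over all left-out mice).

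Fcrls was lower in hindbrain in all 16 mice. The per-mouse difference ran from -0.77 to -0.023 with a median of -0.50 in C57BL/6J and from -1.18 to -0.63 with a median of -0.97 in NOD/ShiLtJ. The mean over all mice was -0.70 (SD 0.34, n = 16), a 1.62-fold lower level, and the fitted difference was -0.70 (SE 0.091, limma FDR = 1.01e-08). Without mouse DD676 it was -0.46, and over all left-out mice it ran from -0.82 to -0.46, called each time. The drop was deeper in NOD/ShiLtJ, by 0.46 on the log2 scale (SE 0.13), and by 0.27 on the 1.0ST arrays. This last contrast is a description, since Fcrls was chosen for its strain pattern.

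Gpr84 was the exception. It had a lowest value of 5.54, a median of 5.70 and a highest of 6.06 in C57BL/6J forebrain and 5.55, 5.90 and 6.35 in hindbrain, and 5.31, 5.73 and 6.24 against 5.11, 5.92 and 6.19 in NOD/ShiLtJ. The ranges overlapped almost fully, and hindbrain was higher in 10 of 16 mice, 1 of them by 0.81. The fitted difference was 0.28 (SE 0.084, limma FDR = 0.00265). With surrogate variables it was -0.062 and not called on the 1.0ST arrays, and without surrogate variables it was 0.14 and 0.065 on the respective formats 1.1ST and 1.0ST. With surrogate variables in the model, the direction of Gpr84 between regions thus turned with the array format. The call was also lost when mouse BB702, BB708 or DD656 was left out (0.11 to 0.35 over all left-out mice).

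**Figure D3:**
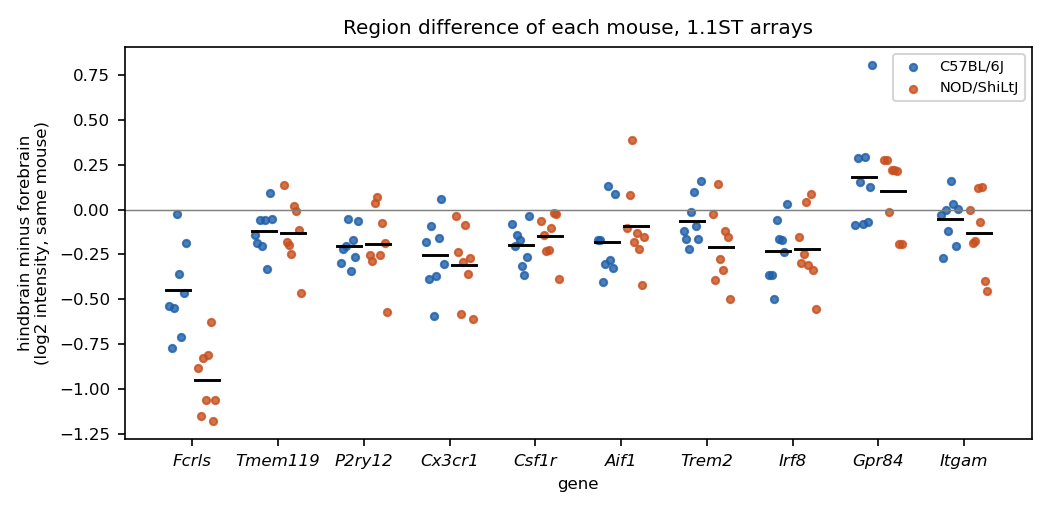
Hindbrain minus forebrain difference in log2 intensity (vertical axis) for each of the 10 genes on the 1.1ST arrays, with 1 point per mouse by strain and bars at the strain means. All points of Fcrls and Csf1r lie below 0, and Gpr84 is higher in hindbrain in 10 of 16 mice.

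Taken mouse by mouse without any model, the region difference had an exact two-sided sign-flip p below 0.05 for 9 of the 10 genes over 16 mice, before adjustment over genes. Fcrls and Csf1r had the smallest sign-flip p that 16 mice allow (3.05e-05), and Itgam was the gene above the threshold (exact sign-flip p = 0.0601). The share of all clusters that pass this test was not computed, so the count has no background beside it. With the 1.0ST arrays, 4 genes were called (Fcrls at -0.35, Cx3cr1 at -0.23, Trem2 at -0.17 and Irf8 at -0.22), where 19.3% of all clusters were called and 9.18% were lower. Without surrogate variables all 10 were called on both formats, 9 lower and Gpr84 higher, where 65.7% of all clusters were called with the 1.1ST format and 77.1% with the 1.0ST format. Without the forebrain array of mouse DD676, 5 genes were called on the 1.1ST arrays (Fcrls, P2ry12, Cx3cr1 and Csf1r lower, Gpr84 higher), and without the hindbrain array of mouse DD678 the count was 9. Without both it was 8. Shares of all clusters are not given for these fits without single arrays, so nothing is read from the counts beyond their change.

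Centering each array on its median moved the median hindbrain minus forebrain difference of all clusters to -0.036, and the clusters called became 9849 lower and 6701 higher in place of 5575 and 7777. The direction of all 10 genes between hindbrain and forebrain was the same under this scaling. For whole brain minus forebrain the clusters called became 3877 lower and 2714 higher in place of 1668 and 2400, and for clozapine 383 lower and 337 higher in place of 534 and 294.

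Whole brain lay close to forebrain. P2ry12 fell by 0.12 (limma FDR = 0.022), Csf1r by 0.11 (limma FDR = 0.00421) and Trem2 by 0.13 (limma FDR = 0.00594), and the other 7 genes were not called, where 14.4% of all clusters were called and 5.89% were lower. Csf1r was lower in whole brain in 13 of 16 mice. Limma called 0 of the 10 on the 1.0ST arrays, with 4 at an unadjusted p below 0.05, and 1.65% of all clusters were called there. Without mouse BB685 P2ry12 was no longer called, and 5 genes were called without mouse BB702. Without the 1.1ST forebrain array of mouse DD676 limma also called 0, with 3 at an unadjusted p below 0.05.

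The region difference of the other 9 genes was not called as different between the strains. For the interaction of strain and hindbrain, limma called 0 of the 9 and none had an unadjusted p below 0.05, where 2.29% of all clusters were called. A mixed model fitted gene by gene also called 0 of the 9. The lowest unadjusted p was that of Csf1r, at 0.0769 in limma with a difference of 0.091. Such p-values do not show that the strains respond alike.

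Clozapine was followed by lower Gpr84, a gene whose mean level (5.79) lay below the array medians of 6.28 to 6.61. Averaged over the 3 regions of each mouse, Gpr84 was 5.93, 5.83, 5.94 and 5.84 in the 4 C57BL/6J vehicle mice and 5.46, 5.66, 5.72 and 5.81 in the 4 C57BL/6J clozapine mice. In NOD/ShiLtJ it was 6.03, 5.94, 6.10 and 6.06 with vehicle and 5.62, 5.72, 5.61 and 5.34 with clozapine. Every clozapine mouse was below every vehicle mouse of its strain. Over all clusters, 2.26% in C57BL/6J and 5.12% in NOD/ShiLtJ had clozapine mice below vehicle mice without overlap.

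The mean difference in Gpr84 was -0.22 in C57BL/6J and -0.46 in NOD/ShiLtJ, or -0.34 (1.27-fold) over both. An exact permutation test of treatment within strains gave a two-sided p of 0.000408, the smallest that 4900 permutations allow. In NOD/ShiLtJ, clozapine mice came mostly from larger litters and were mostly injected earlier than vehicle mice. Litter was not in any fit, so treatment and litter cannot be fully told apart there. In the model over all arrays, Gpr84 fell by 0.26 (SE 0.052, limma FDR = 0.00323) and was the gene of the 10 with the lowest FDR. It was lower with clozapine in all 6 combinations of strain and region, without overlap in the 3 of NOD/ShiLtJ. Those 3 come from the same mice, and no share of all clusters is given for single combinations. In hindbrain of NOD/ShiLtJ the clozapine mice had a lowest value of 5.11, a median of 5.65 and a highest of 5.80, against 6.05, 6.14 and 6.19 with vehicle. On the 1.0ST arrays the difference of mouse means was -0.21 (exact permutation p = 0.00122), and the groups overlapped in C57BL/6J but not in NOD/ShiLtJ, where 2.71% of all clusters had lower clozapine mice without overlap. Gpr84 was called there, and 1.77% of all clusters were called lower.

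Irf8 was the other gene called for clozapine, so that 2 of the 10 were called, both lower, where 2.92% of all clusters were called and 1.89% were lower. Its mouse means were 6.76, 6.61, 6.69 and 6.54 with vehicle and 6.27, 6.61, 6.66 and 6.56 with clozapine in C57BL/6J. In NOD/ShiLtJ they were 6.87, 6.67, 6.80 and 6.76 with vehicle and 6.50, 6.71, 6.35 and 6.33 with clozapine. The groups overlapped in both strains, and the mean difference was -0.22 (exact permutation p = 0.0122). In the model it fell by 0.15 (SE 0.042, limma FDR = 0.0303). The call was lost when any of 8 mice was left out (-0.21 to -0.12 over all left-out mice): BB685, BB686, BB687, DD656, DD658, DD659, DD676 or DD677. Irf8 was not called on the 1.0ST arrays (-0.067, limma FDR = 0.0787). By mouse means its difference there was -0.082 (exact permutation p = 0.0114). The groups overlapped in C57BL/6J but not in NOD/ShiLtJ, where 2.71% of all clusters had lower clozapine mice without overlap.

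Cx3cr1 and Itgam were lower in clozapine mice by mouse means but were not called in the model (-0.078 and -0.057), although Cx3cr1 was called without mouse BB703. Cx3cr1 had a difference of -0.13 (exact permutation p = 0.0265), which lay in NOD/ShiLtJ, with 8.33 to 8.42 for vehicle and 8.00 to 8.20 for clozapine and no overlap. In C57BL/6J the difference was -0.014 and the groups overlapped. The NOD/ShiLtJ mice of the 1.0ST arrays again did not overlap, with a difference of -0.22. Itgam had -0.091 (exact permutation p = 0.00531), and -0.047 (exact permutation p = 0.207) on the other format. Of all 10 genes, 4 had an exact permutation p below 0.05, unadjusted, and the share of all clusters that pass was not computed. Tmem119, P2ry12, Csf1r and Trem2 had mean differences between -0.015 and 0.0028. Whether the effect of clozapine differed between the strains was tested in limma, which called 0 of the 10 and had 0 at an unadjusted p below 0.05 (lowest limma FDR = 0.864), where 0.0141% of all clusters were called.

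The clozapine calls changed with the fit. The paper fitted a linear mixed model to each transcript, with array batch among its terms. It reported no transcript as significant for clozapine, so the calls given here are not results of the paper. A limma fit with 1 mean per mouse had no surrogate variables. Gpr84 had an FDR of 0.0494 there and Irf8 of 0.144, where 0.0353% of all clusters were called. A mixed model fitted gene by gene kept the surrogate variables but estimated the spread of each gene alone. Its FDR was 0.128 for Gpr84 and 0.216 for Irf8, where 0.053% of all clusters were called. These fits differ from the model over all arrays in more than the handling of the mouse, and the parts cannot be told apart. Without the 2 arrays that stood apart, both of clozapine mice, Gpr84 fell by 0.32 (limma FDR = 0.00294) and Irf8 was not called (-0.13, limma FDR = 0.127).

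**Figure D4:**
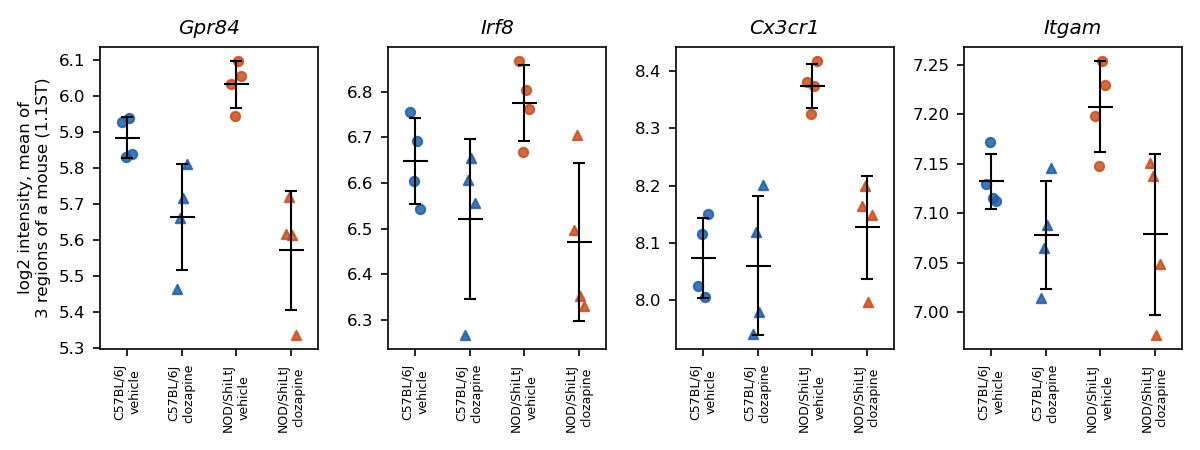
Mean log2 intensity over the 3 regions of each mouse (vertical axis) for Gpr84, Irf8, Cx3cr1 and Itgam on the 1.1ST arrays, with 1 point per mouse by strain and treatment and bars at mean ± SD. Gpr84 is lower in every clozapine mouse than in any vehicle mouse of its strain, and Cx3cr1 is separated in NOD/ShiLtJ only.

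Values of the genes moved together between mice of the same group. After the mean of each strain and region was removed, 43 of the 45 pairs of genes had a positive Pearson correlation over the 48 1.1ST arrays, with a median of 0.32. On the 1.0ST format 42 of 45 were positive, with a median of 0.20. The highest on the 1.1ST arrays was Irf8 with Gpr84 (r = 0.75, and 0.67 on the 1.0ST arrays), followed by P2ry12 with Trem2 (r = 0.62). Cx3cr1 with Gpr84 had r = 0.57 and 0.77. With the treatment mean also removed, Irf8 with Gpr84 had 0.59 and 0.43, and Cx3cr1 with Gpr84 had 0.26 and 0.50. These arrays share mice and array-wide variation, so the values are a description.

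**Figure D5:**
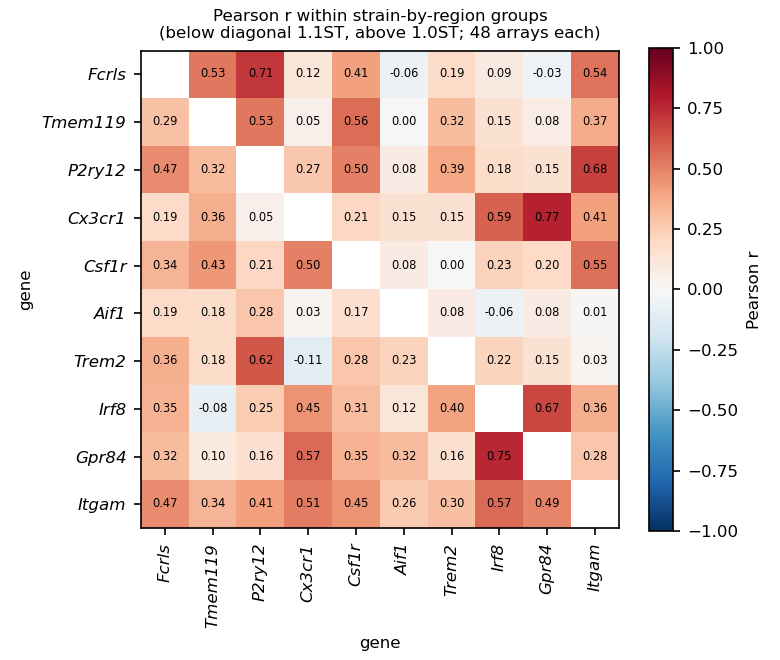
Pearson correlation between each pair of the 10 genes over 48 arrays after removal of strain and region means, with the 1.1ST arrays below the diagonal and the 1.0ST arrays above it. Most pairs are positive, and Irf8 with Gpr84 reaches 0.75 on the 1.1ST arrays.

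Outside the 10 genes, those whose values followed their mean most closely within groups were P2ry13, a purine receptor related to P2ry12 (r = 0.83 over 48 arrays), Fli1 (r = 0.78), Entpd1, the microglial ectonucleotidase CD39 (r = 0.78), Vgll4 (r = 0.76) and Kctd21 (r = 0.76). On the 1.0ST arrays P2ry13 and Entpd1 had 0.78 each, and Fli1 had 0.45. The same sample measured on the other format gave a correlation within groups of 0.82 for Cx3cr1 but of 0.26 for Itgam, 0.27 for Aif1 and 0.38 for Fcrls, which sets how far single samples can be read for those genes.

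Other genes of the same cells and pathways did not all follow the 10. The counts of the lists are from the same model over all arrays and stand beside 19.7% lower and 27.5% higher over all clusters, and beside 9.18% lower and 10.1% higher on the 1.0ST arrays. Of 19 other measured microglial identity genes, 9 were lower and 4 higher in hindbrain, with a median of -0.088. The 1.0ST arrays had 2 lower and 0 higher, with a median of 0.012. Golm1, a Golgi protein, fell by 0.72 (SE 0.076, limma FDR = 4.68e-11), Ltc4s, the leukotriene synthase, by 0.35 (SE 0.086, limma FDR = 0.000418) and Gpr34, a lysophospholipid receptor, by 0.30 (SE 0.068, limma FDR = 0.000174). On the 1.0ST arrays Golm1 had -0.28, Ltc4s 0.020 and Gpr34 -0.26.

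In the Csf1r pathway, 6 of 13 measured genes were lower and 2 higher in hindbrain (1 lower and 0 higher on the 1.0ST arrays), and its ligands moved apart. Il34, which neurons make, fell by 0.66 (SE 0.065, limma FDR = 9.68e-12), while Csf1 rose by 0.40 (SE 0.047, limma FDR = 7.14e-10). Their 1.0ST values were -0.28 and 0.11. The fractalkine ligand Cx3cl1, also neuronal, fell by 0.67 (SE 0.053, limma FDR = 1.77e-14), in the same direction as its receptor Cx3cr1, with -0.46 on the 1.0ST arrays. In the purine and fractalkine list 4 of 9 were lower and 3 higher (1 and 1 on the 1.0ST arrays), among them the nucleotidase Nt5e, which fell by 0.43, and the channel P2rx4, which rose by 0.26. In the Trem2 and Tyrobp pathway, 4 of 16 were lower and 4 higher (1 and 1 of 17 on the 1.0ST arrays). Tyrobp, the partner of Trem2, rose by 0.18 (SE 0.088, limma FDR = 0.0404), with 0.079 on the 1.0ST arrays, and the adaptor Card9 rose by 0.40.

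Complement and phagocytic receptor genes were 5 lower and 4 higher of 16 (2 and 2 on the 1.0ST arrays), among them the lipoprotein receptor Scarb1 (-0.43), the bridging ligand Gas6 (0.36) and the receptor Mertk (-0.33). Of 15 genes of disease-associated microglia, 2 were lower and 7 higher in hindbrain, with a median of 0.11 (2 and 3 of 16 on the 1.0ST arrays, median 0.034), and the lipid carrier Fabp5 rose by 0.37 while the lipase Lpl fell by 1.33. Lpl is also made by neurons. Myeloid transcription factors were 3 lower and 2 higher of 13 (1 and 1 on the 1.0ST arrays), and Mef2c, which is abundant in neurons, fell by 1.74. Fc receptors were 1 lower (Fcgr3, -0.36, with 0.015 on the 1.0ST arrays) and 1 higher (Fcrlb, 0.20) of 11, with 0 called on the 1.0ST arrays. Inflammatory genes were 2 lower and 2 higher of 20 (2 and 0 on the 1.0ST arrays), among them Ptgs2 (-1.81), which neurons also make.

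Markers of some other cells also moved between the regions. All 12 measured oligodendrocyte genes were higher in hindbrain (11 of 13 on the 1.0ST arrays), with a median of 0.76, and their mean level ran from 9.08 to 9.50 in C57BL/6J forebrain and from 10.0 to 10.4 in hindbrain. Astrocyte genes were 9 higher and 3 lower of 12 (7 and 3 on the 1.0ST arrays), and their median was 0.33 (10.0 to 10.2 in C57BL/6J forebrain, 10.4 to 10.6 in hindbrain). Endothelial and mural genes were 10 higher and 0 lower of 13 (3 and 0 on the 1.0ST arrays), and their median was 0.25 (7.81 to 8.15 against 8.09 to 8.52). Neuronal genes were 5 lower and 5 higher of 13 (4 and 5 of 14 on the 1.0ST arrays). Border macrophages had 5 higher and 0 lower of 12, with Cbr2 at 0.48 and F13a1 at 0.31, and a mean level of 4.87 to 5.08 in C57BL/6J forebrain and 4.98 to 5.33 in hindbrain. The 1.0ST arrays called 0 of these 12 in limma, with a median of 0.015, and had 0.24 for Cbr2 and -0.043 for F13a1. Monocyte and neutrophil genes had 3 higher of 12, lymphocyte genes 2 lower and 3 higher of 13 and red cell genes 1 higher of 3. The higher counts lie near the share of 27.5% over all clusters and are not read as a result. Mean levels in C57BL/6J forebrain were low, 3.97 to 4.14 for monocyte and neutrophil genes and 4.39 to 4.49 for lymphocyte genes. Of these last lists the 1.0ST arrays called 1 lymphocyte gene, which was lower. The part of these cells in the lower microglial values was not tested.

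Clozapine calls in the lists come from the model over all arrays, which called 1.89% of all clusters lower and 1.04% higher, and not from the fit with 1 mean per mouse. With 1 mean per mouse 0.0353% of all clusters were called, and 0.053% in the mixed model fitted gene by gene. Most calls of the model over all arrays were thus not made in either of these fits, which also differ from it in surrogate variables or in the estimate of spread. No per-mouse values are given for the list genes named here. The genes named from here on were chosen after their values were seen. Of the 19 other microglial identity genes 3 were lower and 0 higher, with a median of 0.027, so the list as a whole did not fall. The 1.0ST arrays had 2 lower and 0 higher, with a median of 0.00024 (1.77% lower and 1.24% higher over all clusters). The 3 were P2ry13 (-0.23, SE 0.058, limma FDR = 0.0146), Gpr34 (-0.21, SE 0.043, limma FDR = 0.00284) and Sall1, a transcription factor of microglia (-0.20, SE 0.056, limma FDR = 0.0338), with -0.21, -0.21 and -0.12 on the 1.0ST arrays. The NF-kappaB inhibitor Nfkbia was the inflammatory gene called, and it rose by 0.60 (SE 0.10, limma FDR = 0.000587). Nt5e rose by 0.35, and Il7r of the lymphocyte list rose by 0.20. No gene of the Csf1r, Trem2 and Tyrobp, complement, Fc receptor or disease-associated lists was called on the 1.1ST arrays, while 1 of the Trem2 and Tyrobp list and 1 of the complement list were higher on the 1.0ST arrays. Of the 13 endothelial and mural genes 4 were lower with clozapine, Slco1a4 (-0.27), Kdr (-0.23), Tek (-0.22) and Flt1 (-0.10), and their mean level ran from 7.92 to 8.20 in vehicle mice and from 7.72 to 8.23 in clozapine mice. No astrocyte, oligodendrocyte, neuronal, border macrophage, monocyte and neutrophil or red cell gene was called on the 1.1ST arrays. The 1.0ST arrays had 1 astrocyte gene lower and 1 oligodendrocyte gene lower and 1 higher, and 2 of the endothelial and mural genes lower. The part of the endothelial change in the values of Gpr84 and Irf8 was not tested.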

How the data were processed

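Forebrain, hindbrain and whole brain RNA of 16 mice was measured on Affymetrix 1.1ST and 1.0ST arrays. The deposited values are log2 intensities per transcript cluster, which per the submitters' processing notes came from Affymetrix Expression Console 1.1. The genome build of the annotation used by the authors is not given in the sources used here. Clusters were named through the platform annotation (21207 with 1 symbol, 1867 with several, 5236 with none).

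On the 1.1ST arrays (medians 6.28 to 6.61), limma 3.58.1 in R 4.3.3 was fitted to 28310 clusters with strain-by-region means, treatment, 5 surrogate variables from 1000 transcripts each and the mouse as a random block (consensus correlation 0.031). FDR followed the formula of the study's methods, and calls were made at 0.05. Pairing comes from the same animal, and residuals of forebrain and hindbrain correlated at 0.066 within mice and -0.0045 between mice. The fits were tested on simulated data. Alternatives were the 1.0ST arrays, no surrogate variables, other blocks, a mixed model (lme4 1.1.37), other filters and scalings, hour of kill, vehicle mice only, each mouse left out, and, added after seeing the data, single arrays left out. Exact tests enumerated sign flips or permutations of mouse values with NumPy 2.4.6 and were two-sided.

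Named genes were the 10 genes, up to 3 genes called with the largest hindbrain minus forebrain difference from each of 17 lists (211 of 236 listed genes measured), chromosomal neighbors of Fcrls and the closest correlates. Genes of the lists named for clozapine were chosen after their values were seen. The members and lists were chosen with earlier results of these data known. The 2 runs of 24 1.1ST arrays and the side of the hemisphere are not in the labels, so neither was a covariate.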

Additional observations from a re-analysis of the deposited data

Results flagged for a closer look

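In 6 of 120 groups of 8 mice, 1 sample stood apart from the rest by Dixon's criterion, and chance would flag about 1 group in 20. On the 1.1ST arrays, Csf1r was 8.864 and Itgam 6.805 in the forebrain of NOD/ShiLtJ mouse DD676, where the next lowest mice had 9.037 and 7.121. Tmem119 was 7.836 in the hindbrain of NOD/ShiLtJ mouse DD678, and the next lowest mouse had 7.962. These 3 values come from the 2 arrays that stood apart over all clusters. Aif1 was 5.886 in the hindbrain of NOD/ShiLtJ mouse DD658, above the next highest at 5.531. On the 1.0ST arrays, Csf1r was 9.869 in the hindbrain of C57BL/6J mouse BB702 (next lowest 10.01) and Aif1 was 6.826 in the forebrain of C57BL/6J mouse BB687 (next lowest 6.961). Of 18 tests of a region effect and 10 tests of clozapine against strain, 0 passed the threshold in limma.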

How the results depend on the processing

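The number of the 10 genes called between hindbrain and forebrain was 9. It was 4 on the 1.0ST arrays, 10 on either format without surrogate variables and 5 without the forebrain array of mouse DD676. It ran from 5 to 10 when each mouse was left out, with 5 without DD676. Gpr84 turned to -0.0621 on the 1.0ST arrays. Between whole brain and forebrain the count was 3. It was 0 on the 1.0ST arrays, 1 without surrogate variables, 1 with the mouse as a fixed replicate block and no surrogate variables, 0 without the forebrain array of mouse DD676 and 0 without both arrays that stood apart, and it ran from 0 (without DD676) to 5 (without BB702) over left-out mice. For clozapine the count was 2. It was 1 on the 1.0ST arrays, 1 with hour of kill as a covariate, 1 with 1 mean per mouse, 0 with 1 mean per mouse on the 1.0ST arrays (3 at an unadjusted p below 0.05), 0 in the mixed model (2 at an unadjusted p below 0.05), 1 without the forebrain array of DD676, 1 without both arrays and 4 by exact permutation without adjustment. It ran from 1 to 3 over left-out mice, and 8 mice (BB685, BB686, BB687, DD656, DD658, DD659, DD676 and DD677) left 1, Gpr84, when omitted. With the mouse as a fixed replicate block and no surrogate variables the hindbrain count was 10 and the interaction count 0, and each count equalled that without surrogate variables alone. The cause was not tested. The strain difference of Fcrls was -1.73 in hindbrain, with -1.41 on the 1.0ST arrays and -1.48 on these without surrogate variables. Over the 3 regions it was -1.45, with -1.25 on the 1.0ST arrays. The interaction count of the other 9 genes was 0 in every setting run. Each gene has 1 cluster, so averaging clusters of a symbol gave no other value.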
